A study of Mus musculus with 9 samples.

Results

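The nuclear genes of oxidative phosphorylation were followed across 9 Affymetrix arrays of natural killer (NK) cells, innate lymphocytes that kill infected and tumour cells, sorted from mice by flow cytometry. Members were the probe sets that carry 1 gene symbol beginning with Nduf, Uqcr, Cox4, Cox5, Cox6, Cox7, Cox8 or Atp5, together with Sdha, Sdhb, Sdhc, Sdhd and Cyc1. This rule took 180 of 45101 probe sets and 91 of 18193 genes. They were 34 subunits of complex I, 4 of complex II, 9 of complex III, 18 of complex IV (Ndufa4 among them, which is a complex IV subunit despite its name), 17 of complex V, 8 Ndufaf assembly factors of complex I and Ndufa4l2, a relative of Ndufa4. Cox7b has no probe set of 1 symbol and is not analysed here. Each gene was read from the brightest of its probe sets, and 84 of the 91 were bright enough to be tested; the other 7 (Ndufb1, Ndufb4, Cox6b2, Cox7a1, Cox7b2, Cox8b and Ndufa4l2) lay below the filter.

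The arrays form 3 groups of 3 replicates each, which the labels call biological. NK cells from the spleen of IL15tg mice are the group that the design text calls mature. The other 2 groups were NK cells from the spleen and from the bone marrow of NKDxIL15tg mice, which it calls immature. All 3 groups carry the IL15tg transgene, which supplies the cytokine IL-15 that NK cells need to survive, and both immature groups carry NKD, a transgenic line short of mature NK cells, whose transgene was reported elsewhere to lie at the Atf2 gene. The promoter of either transgene, the age of the mice, pooling of animals and the gate of the sort are not given in the sources used here. The spleen groups therefore differ in maturity and in the NKD transgene together, and these cannot be told apart; NKDxIL15tg bone marrow against IL15tg spleen differs in organ as well.

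Oxidative phosphorylation makes most of the ATP of a resting lymphocyte. Complex I and complex II pass electrons from NADH and succinate to ubiquinone, complex III hands them on to cytochrome c, and complex IV, cytochrome c oxidase, gives them to oxygen. Complexes I, III and IV pump protons as they do so, and complex V, the ATP synthase, lets the protons flow back to drive ATP synthesis. All subunits of complex II are nuclear, while the other complexes combine nuclear subunits with a few encoded by mitochondrial DNA. The transcription factor NRF1, the ETS factor GABP (also called NRF2) and the coactivators of the PGC-1 family are known to act on many of the nuclear genes.

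Median intensity was 56.6 to 59.1 on 8 arrays and 64.9 on NKDxIL15tg bone marrow replicate 3, where 1114 of 12925 tested genes (8.62%) lay over 2-fold above all other arrays; of the 84 tested members these were 3, Ndufa7, Uqcrh and Ndufaf8. Genes of other blood cells moved with the groups. Summed intensity of 15 granulocyte and monocyte genes was 3907 to 4206 in IL15tg spleen, 6703 to 11382 in NKDxIL15tg spleen and 15179 to 34092 in NKDxIL15tg bone marrow, and 5, 3 and 12 of the 14 tested rose in NKDxIL15tg against IL15tg spleen, in bone marrow against NKDxIL15tg spleen and in bone marrow against IL15tg spleen. For 11 erythroid genes the sums were 1962 to 2119, 7809 to 8432 and 5782 to 7749, with 3, 0 and 5 of 9 tested risen, and for 9 NK cell genes, all tested, 37685 to 39071, 28578 to 30619 and 25985 to 27939, with 0 risen and 2, 0 and 3 fallen. For 13 B cell genes the sums were 2394 to 3855, 2510 to 3637 and 1558 to 3326, with 5, 2 and 5 of 9 tested fallen. For 10 T cell genes they were 1998 to 2246, 3734 to 5146 and 3409 to 4255, with 1, 0 and 1 of 8 tested risen. Of all tested genes 7.65%, 0.0232% and 11.5% rose in these 3 comparisons at an adjusted p under 0.05, and 4.87%, 0.0464% and 8.70% fell. The T cell count in bone marrow against IL15tg spleen (12.5%) lay near the share of all tested genes. No marker had an intensity of 0. In bulk samples, fewer cells of a type and less RNA per cell cannot be told apart. Gapdh read higher from its 3' than from its 5' probe set, a sign of RNA length, by log2 differences of 1.99 to 3.21 in IL15tg spleen, 1.62 to 1.87 in NKDxIL15tg spleen and 1.87 to 2.33 in bone marrow. The same difference for actin was 1.80 to 2.73, 1.54 to 2.03 and 0.93 to 1.77, and bone marrow replicate 3 had the lowest one for actin (0.93) and the highest of the bone marrow arrays for Gapdh (2.33). The part of these differences in the results below was not tested.

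In NKDxIL15tg against IL15tg spleen, more of the genes rose than fell, by small amounts. Of 84 tested members, 14 rose (16.7%) and 2 fell (2.38%) at an adjusted p under 0.05, beside 7.65% and 4.87% of all 12925 tested genes, 12.5% in both directions together (limma, Benjamini-Hochberg over all probe sets). The risen genes were Ndufc2, Ndufb8, Ndufs4, Ndufv2, Ndufb6 and Ndufab1 of complex I, Sdhd of complex II, Uqcrfs1 of complex III, Cox6c, Cox5b and Cox5a of complex IV, Atp5b and Atp5mpl of complex V, and the assembly factor Ndufaf1. The fallen genes were Cox6a2 of complex IV and Sdhb of complex II. Over all 91 members the median log2 change was 0.16, beside 0.01 over all genes, and 69 members (75.8%) had a change above 0, beside 51.8% of all genes. Every NKDxIL15tg array lay above every IL15tg array in 33 tested members and below in 4, beside 21.3% and 15.1% of all tested genes.

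The count of called members moved with single arrays. It was 5, 7 and 7 without IL15tg spleen replicates 1, 2 and 3, 9 and 5 without NKDxIL15tg spleen replicates 1 and 2, and 9 when the 75th percentile of each array was set equal. Of the 16 calls, 5 held in each of the 9 fits that left out 1 array (Ndufaf1, Ndufc2, Ndufs4, Cox6c and Cox6a2). The share of all tested genes called moved too, from 12.5% to 6.46%, 6.31% and 7.16% without IL15tg spleen replicates 1, 2 and 3. It was 9.98% and 7.5% without NKDxIL15tg spleen replicates 1 and 2, and 9.73% with the 75th percentile set equal. Both directions together, the called members of 84 tested lay near these shares in those fits.

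In NKDxIL15tg bone marrow against NKDxIL15tg spleen, 0 members passed in limma's test, and of all tested genes 0.0696% did (0.0232% higher and 0.0464% lower). At an unadjusted p under 0.05, 16 members were higher and 2 lower in bone marrow, beside 6.21% and 4.66% of all tested genes. The median log2 change of the 91 members was 0.17, beside 0.04 over all genes, and 73 members (80.2%) had a change above 0, beside 58.2% of all genes. The groups did not overlap in 24 tested members that were higher and 3 that were lower in bone marrow, beside 10.8% and 6.03% of all tested genes. The members' median was 0.08 with the 75th percentile of each array set equal, when that of all genes was -0.03.

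In NKDxIL15tg bone marrow against IL15tg spleen, 32 members rose (38.1%) and 2 fell (Cox6a2 and Cox7c), beside 11.5% risen and 8.70% fallen of all tested genes, 20.2% together. The groups did not overlap in 53 members that were higher and 2 that were lower, beside 25.4% and 16.6%. The median log2 change was 0.33 over the 91 members and 0.10 over all genes. A change above 0 was seen in 83 members (91.2%), beside 62.6% of all genes. The risen members were 15 of 32 tested in complex I, 1 of 4 in complex II, 4 of 9 in complex III, 3 of 14 in complex IV, 8 of 17 in complex V and 1 of 8 assembly factors. This comparison shares the IL15tg arrays with the first, and 14 of the 16 genes called there were called here in the same direction. Without IL15tg spleen replicate 1 the count of called members was 17 in place of 34, with 17 of the 34 called in every fit that left out 1 array. The count was 20 and 22 with the 75th percentile set equal and with quantile normalization. Of all tested genes, 10.8% were called without IL15tg spleen replicate 1, and 16.9% and 18.9% under these scalings, in place of 20.2%.

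Set on each gene's own mean over the 9 arrays, the median level of the 91 members was -0.27, -0.14 and -0.12 in the 3 IL15tg spleen arrays, -0.02, 0.10 and -0.05 in the NKDxIL15tg spleen arrays and 0.12, 0.18 and 0.17 in the bone marrow arrays, on the log2 scale. The 3 groups did not overlap in this level, and IL15tg spleen replicate 1 was the lowest array. Over all genes the same level ran in the same order, at -0.054 to -0.035, -0.043 to 0.007 and -0.002 to 0.062, with neighbouring groups overlapping. Over all tested genes it was -0.060 to -0.043, -0.038 to 0.009 and -0.012 to 0.078, with IL15tg spleen below both other groups. In complex I the groups kept apart as well, at -0.30 to -0.09, -0.03 to 0.11 and 0.16 to 0.21. The same held in complex III, at -0.34 to -0.17, -0.15 to 0.08 and 0.12 to 0.46. In complex II, NKDxIL15tg spleen (-0.04 to 0.12) overlapped bone marrow (0.07 to 0.15). In complex IV the spleen groups overlapped each other (-0.11 to -0.02 and -0.06 to 0.02), and in complex V NKDxIL15tg spleen (-0.07 to 0.13) overlapped bone marrow (0.12 to 0.22).

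**Figure D1:**
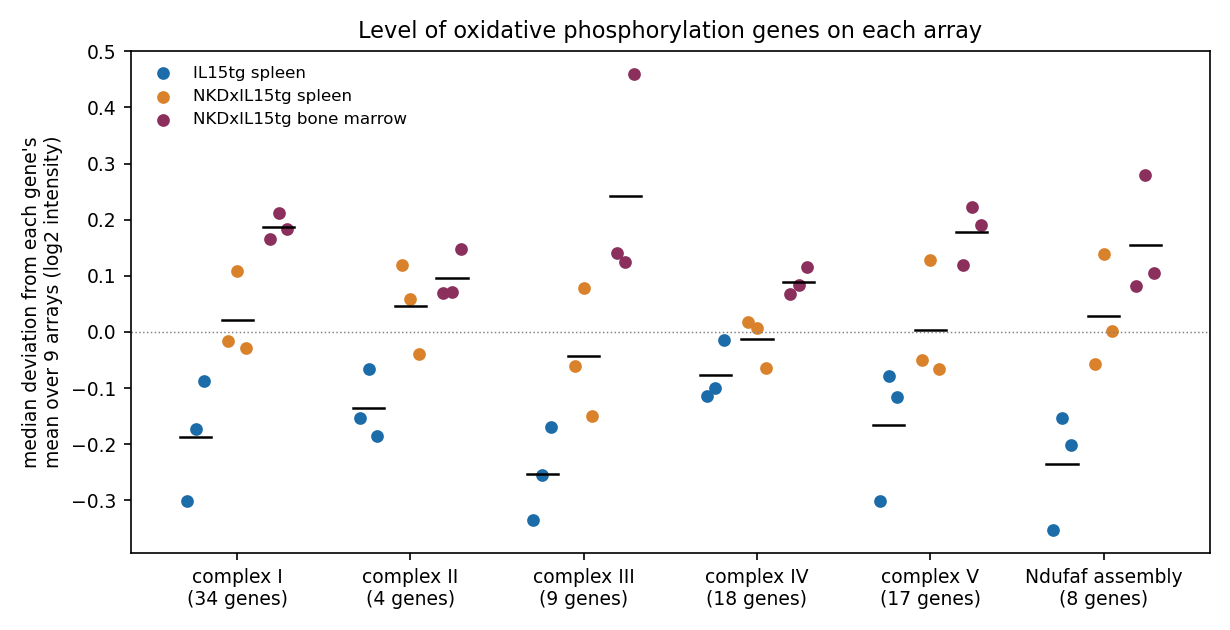
Median deviation of the genes of each respiratory complex, and of the Ndufaf assembly factors, from their own mean over the 9 arrays (log2 intensity, vertical axis); each point is 1 array, coloured by group, and black lines are the means of 3 arrays. IL15tg spleen arrays lie lowest in complex I (-0.30 to -0.09) and bone marrow arrays highest (0.16 to 0.21), and bone marrow replicate 3 stands alone in complex III at 0.46.

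Complex I, the NADH dehydrogenase, is the largest of the complexes. In NKDxIL15tg against IL15tg spleen 6 of its 32 tested genes rose (18.8%) and none fell, beside 7.65% and 4.87% of all tested genes. The median was 0.19 over its 34 genes. Ndufc2, a subunit of the membrane arm, had intensities of 1409, 1544 and 1439 in IL15tg spleen, 2514, 2638 and 2425 in NKDxIL15tg spleen and 2746, 2527 and 2356 in bone marrow. Both NKDxIL15tg groups lay above every IL15tg array and overlapped each other. The log2 change was 0.79 ± 0.10 (SE, 3 arrays a group, as in all changes that follow) in spleen (adjusted p = 0.00155, a fold of 1.73) and 0.80 ± 0.10 in bone marrow against IL15tg spleen (adjusted p = 0.00102). Ndufs4, an accessory subunit that stabilises the matrix arm, read 478, 636 and 532, then 825, 872 and 818, then 972, 887 and 939.5. Its 3 groups did not overlap, and it rose by 0.62 ± 0.12 in spleen (adjusted p = 0.0113). The other 3 tested probe sets of Ndufs4 had changes of -0.04 to 0.42 there and none passed, so that the mean of its probe sets did not pass either.

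Further subunits of the membrane arm rose in spleen. Ndufb8 read 775, 852 and 857 in IL15tg and 1335, 1381 and 1128 in NKDxIL15tg spleen, a change of 0.63 ± 0.13 (adjusted p = 0.0152; adjusted p = 0.0516 to 0.0661 without IL15tg spleen replicates 1 or 2, as well as without NKDxIL15tg spleen replicate 2). Ndufb6 read 907, 1024 and 1010.4 and 1315, 1585 and 1352, a change of 0.53 ± 0.11 (adjusted p = 0.0166; adjusted p = 0.0562 to 0.0721 without IL15tg spleen replicate 1, as well as without NKDxIL15tg spleen replicate 2). In both genes every NKDxIL15tg spleen array lay above every IL15tg array. Ndufab1, the mitochondrial acyl carrier protein, which is also a complex I subunit, read 251, 345 and 316 and 405, 466 and 416. Its change of 0.51 ± 0.14 lay close to the threshold (adjusted p = 0.0439; adjusted p = 0.0545 to 0.144 without IL15tg spleen replicates 1, 2 or 3, as well as without NKDxIL15tg spleen replicates 1, 2 or 3, as well as without NKDxIL15tg bone marrow replicates 1 or 2). Ndufb6, Ndufab1 and Ndufv2 did not pass in spleen when the 75th percentile of each array was set equal or with quantile normalization.

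The nuclear core of complex I holds the flavin and the iron-sulphur clusters. Of its 6 measured genes only Ndufv2 passed in spleen, and 3 passed in bone marrow against IL15tg spleen (Ndufs8, Ndufv2 and Ndufv1). All tested genes passed at 12.5% and 20.2% in these comparisons. Ndufv2, an iron-sulphur subunit, read 740.3, 905 and 864 in IL15tg spleen, 1037, 1468 and 1263 in NKDxIL15tg spleen and 1371, 1459.5 and 1406 in bone marrow. It rose by 0.58 ± 0.14 in spleen (adjusted p = 0.029; adjusted p = 0.0622 to 0.114 without IL15tg spleen replicates 1, 2 or 3, as well as without NKDxIL15tg spleen replicates 2 or 3) and by 0.76 ± 0.14 in bone marrow against IL15tg spleen (adjusted p = 0.0065). The NKDxIL15tg groups overlapped each other and lay above IL15tg spleen.

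Ndufs8, another iron-sulphur subunit, had the largest change of complex I in bone marrow against IL15tg spleen. It read 629, 774 and 778, then 929, 951 and 855, then 1389, 1172 and 1412, and its 3 groups did not overlap. Its changes were 0.33 ± 0.13 in spleen (adjusted p = 0.124), 0.54 ± 0.13 in bone marrow against NKDxIL15tg spleen (adjusted p = 0.324) and 0.87 ± 0.13 in bone marrow against IL15tg spleen (adjusted p = 0.00192). All 6 of its probe sets passed in the last comparison, at 0.74 to 0.94. Ndufv1, the flavin subunit, changed by 0.18 ± 0.13 (adjusted p = 0.436) in spleen and rose by 0.51 ± 0.13 in bone marrow against IL15tg spleen (adjusted p = 0.022; adjusted p = 0.0565 to 0.0821 without IL15tg spleen replicates 1 or 3, as well as without NKDxIL15tg bone marrow replicates 1 or 2). Ndufs1, the largest core subunit, differed little between the groups, with changes of 0.08 ± 0.10 and -0.01 ± 0.10 against IL15tg spleen (adjusted p = 0.665 and 0.953). Ndufs3 and Ndufs7 had changes of 0.33 ± 0.12 and 0.35 ± 0.14 in bone marrow against IL15tg spleen (adjusted p = 0.0784 and 0.114). The call of Ndufv1 was also lost under either rescaling of the arrays.

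Among the accessory subunits of complex I, 12 of 26 tested rose in bone marrow against IL15tg spleen, beside 11.5% of all tested genes. Ndufa9, a subunit of the matrix arm, read 322, 343 and 241, then 447, 495 and 386, then 496, 424 and 648, and rose by 0.78 ± 0.19 (adjusted p = 0.0205; adjusted p = 0.0529 to 0.0705 without IL15tg spleen replicates 1 or 3). Its change in spleen was 0.56 ± 0.19 (adjusted p = 0.0911). Ndufa12 rose by 0.74 ± 0.14 (adjusted p = 0.00609), and 2 of its other 3 probe sets rose with it while the remaining one fell by 0.60 (adjusted p = 0.0455). Ndufa7 read 1058 and 1220 on bone marrow replicates 1 and 2 and 3767 on replicate 3, against 995 to 1251 on the other arrays. Its bone marrow value thus rests on 1 array, and its change did not pass (0.61 ± 0.40, adjusted p = 0.292). Another probe set of Ndufa7 passed against IL15tg spleen, at 0.50 in NKDxIL15tg spleen (adjusted p = 0.0328) and 0.56 in bone marrow (adjusted p = 0.0153). The dim Ndufb4, below the filter, had the lowest change of complex I in spleen (-0.27).

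**Figure D2:**
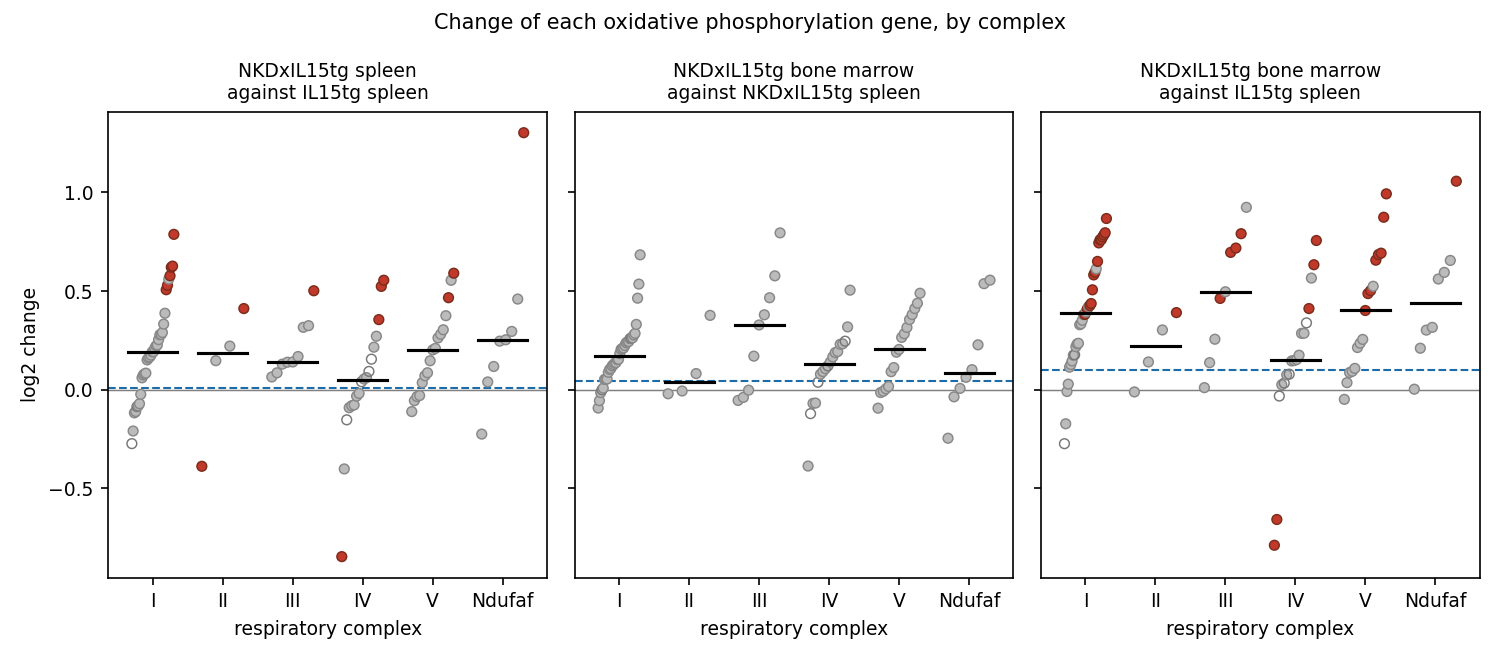
Log2 change of each member (vertical axis) by respiratory complex (horizontal axis) in the 3 comparisons; red points passed an adjusted p of 0.05, grey points did not, open points were too dim to be tested, black lines are the medians of all members of a complex and the blue dashed line is the median over all genes. No point is red in bone marrow against NKDxIL15tg spleen, and Ndufaf1 is the highest point in both comparisons with IL15tg spleen, at 1.30 and 1.06.

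Complex II, succinate dehydrogenase, is shared with the tricarboxylic acid cycle, and its 4 genes did not move together in spleen. Sdhb, the iron-sulphur subunit, read 1453, 1476 and 1751 in IL15tg spleen, 1143, 1273 and 1152 in NKDxIL15tg spleen and 1544, 1489 and 1597 in bone marrow. Only NKDxIL15tg spleen was low, below every array of both other groups. The change in spleen was -0.39 ± 0.11 (adjusted p = 0.0486; adjusted p = 0.0627 to 0.156 without IL15tg spleen replicates 1, 2 or 3, as well as without NKDxIL15tg spleen replicates 1, 2 or 3, as well as without NKDxIL15tg bone marrow replicates 1 or 2) and did not pass with the replicate number as a block (adjusted p = 0.067) or with the 75th percentile of each array set equal. Bone marrow against IL15tg spleen gave -0.01 ± 0.11 (adjusted p = 0.948). Sdhd, a membrane anchor of the complex, went the other way, with 780.1, 815 and 730.0 in IL15tg spleen, 1017, 1133 and 948 in NKDxIL15tg spleen and 991, 1092 and 966 in bone marrow. Its change of 0.41 ± 0.11 in spleen passed (adjusted p = 0.0392; adjusted p = 0.0592 to 0.129 without IL15tg spleen replicates 1, 2 or 3, as well as without NKDxIL15tg spleen replicates 1 or 2, as well as without NKDxIL15tg bone marrow replicate 1), though not under either rescaling of the arrays, and its second probe set rose by 0.82 (adjusted p = 0.0180). Sdhc, the other anchor, and Sdha, the flavin subunit, had changes of 0.22 ± 0.11 and 0.15 ± 0.10 in spleen (adjusted p = 0.241 and 0.411), with no overlap between the spleen groups in either.

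Complex III, the cytochrome bc1 complex, had a median change of 0.14 in spleen, with 1 of 9 genes risen (11.1%, beside 7.65% of all tested genes). That gene was Uqcrfs1, the Rieske iron-sulphur protein, at 1061, 1201 and 1185 in IL15tg spleen, 1638, 1769.7 and 1478 in NKDxIL15tg spleen and 1672, 1605 and 1473 in bone marrow. Both NKDxIL15tg groups lay above all IL15tg arrays, and the spleen change was 0.50 ± 0.11 (adjusted p = 0.0197; adjusted p = 0.0538 to 0.0829 without IL15tg spleen replicates 1, 2 or 3, as well as without NKDxIL15tg spleen replicates 1 or 2); it did not pass under either rescaling of the arrays. Cyc1, cytochrome c1, did not pass (0.09 ± 0.11 in spleen, adjusted p = 0.711). In bone marrow against IL15tg spleen Uqcr11, a small subunit, rose by 0.70 ± 0.12 (adjusted p = 0.00426), with 352, 354 and 394, then 438, 522 and 413, then 571, 573 and 636 and no overlap between any of the groups.

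Uqcrh, Uqcrc1 and Uqcr10 had their highest value on bone marrow replicate 3. Uqcrh, the hinge protein, read 729 and 784 on bone marrow replicates 1 and 2 and 2624 on replicate 3, and had the largest change of the complex without passing (0.92 ± 0.42 against IL15tg spleen, adjusted p = 0.15). Uqcrc1, a core protein, read 489, 412 and 831 in bone marrow and 327, 339 and 292 in IL15tg spleen, and its change of 0.79 ± 0.24 lay near the threshold (adjusted p = 0.0478; adjusted p = 0.0521 to 0.132 without IL15tg spleen replicates 1, 2 or 3, as well as without NKDxIL15tg spleen replicates 1, 2 or 3, as well as without NKDxIL15tg bone marrow replicate 1; adjusted p = 0.0747 with the replicate number as a block). Uqcr10, a small subunit, read 669, 575 and 960.3 in bone marrow and 391, 422 and 504 in IL15tg spleen and rose by 0.72 ± 0.19 (adjusted p = 0.03; adjusted p = 0.0523 to 0.112 without IL15tg spleen replicates 1 or 2, as well as without NKDxIL15tg bone marrow replicate 1). The median change of complex III in bone marrow against NKDxIL15tg spleen was 0.33 with that array and 0.17 without it. Uqcrb, a small subunit, had the lowest change of the complex against IL15tg spleen in both NKDxIL15tg groups (0.06 ± 0.13 and 0.01 ± 0.13, adjusted p = 0.835 and 0.958).

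**Figure D3:**
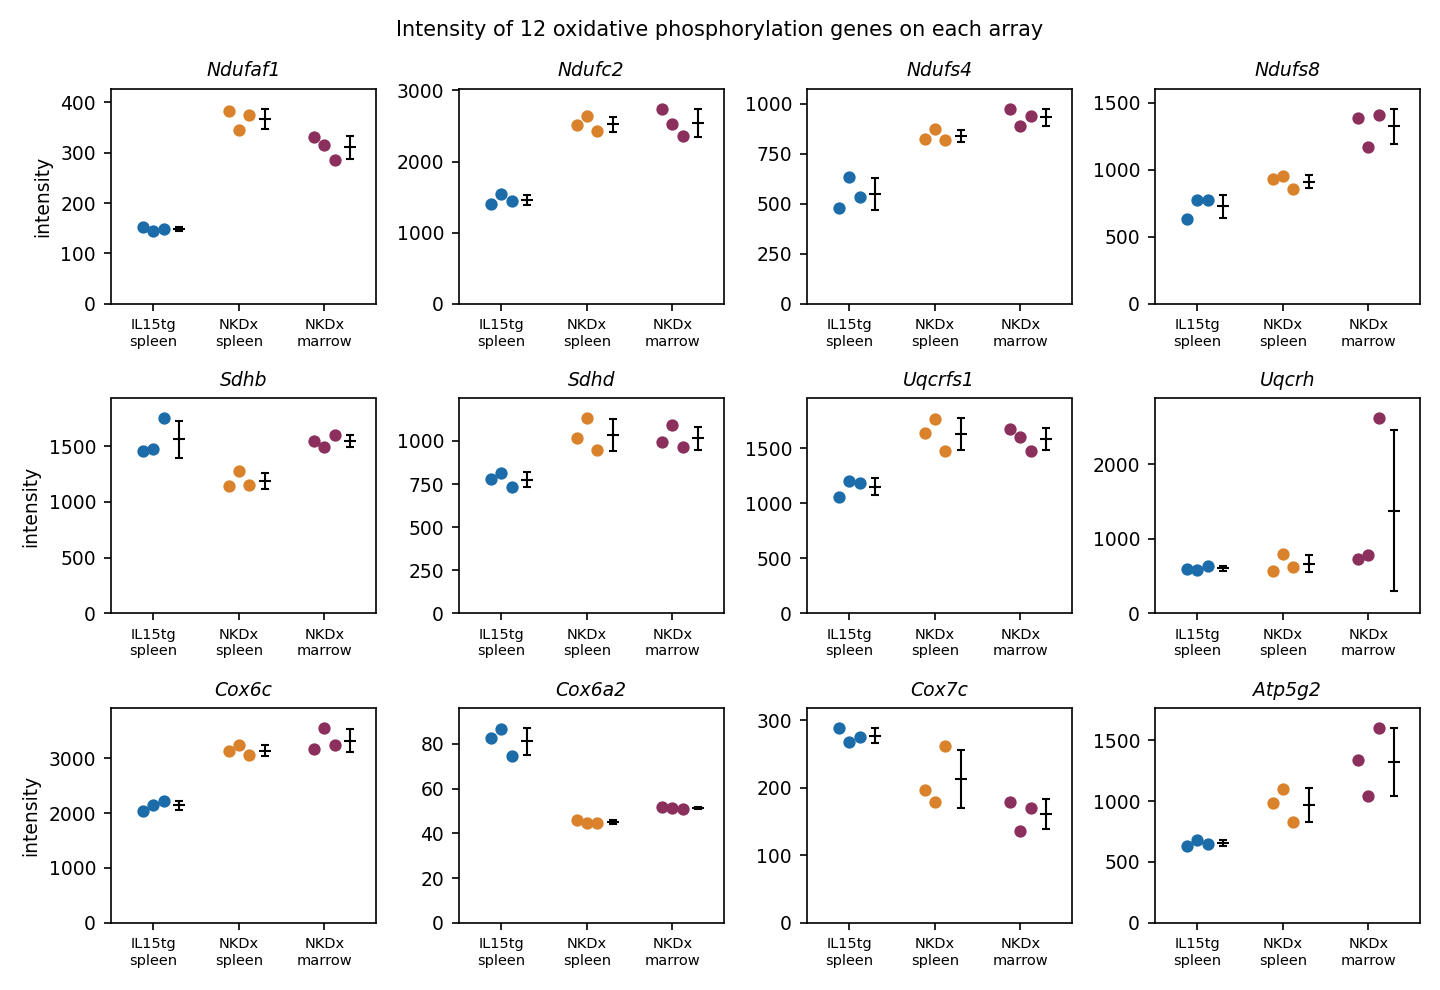
Intensity (vertical axis, linear, from 0) of 12 members on each array; points are arrays, coloured by group, black marks and bars are the mean and SD of 3 arrays, and NKDx stands for NKDxIL15tg. Ndufaf1, Ndufc2 and Cox6c are low in all 3 IL15tg arrays, Cox6a2 is high there, Sdhb is low in NKDxIL15tg spleen, and Uqcrh is high on bone marrow replicate 3 alone (2624).

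Complex IV had the smallest median change of the 5 complexes in spleen, 0.05 over 18 genes. That median includes Cox6b2, Cox7a1, Cox7b2 and Cox8b, which were too dim to be tested. Of its 14 tested genes 3 rose and 1 fell, beside 7.65% and 4.87% of all tested genes. Cox6c, a nuclear subunit of the membrane part, read 2048, 2146 and 2228 in IL15tg spleen, 3128, 3246 and 3056 in NKDxIL15tg spleen and 3168, 3564 and 3236 in bone marrow. It rose by 0.55 ± 0.10 in spleen (adjusted p = 0.00678) and by 0.63 ± 0.10 in bone marrow against IL15tg spleen (adjusted p = 0.00244), with both NKDxIL15tg groups above every IL15tg array. Cox5b and Cox5a are paired subunits on the matrix side. Cox5b read 2300.5, 2414 and 2600.0, then 3420.5, 3994 and 3139, then 4463, 4142 and 3762, and rose by 0.52 ± 0.12 in spleen (adjusted p = 0.0245; adjusted p = 0.0533 to 0.0967 without IL15tg spleen replicates 1, 2 or 3, as well as without NKDxIL15tg spleen replicates 1 or 2) and by 0.76 ± 0.12 in bone marrow against IL15tg spleen (adjusted p = 0.00341); 3 of its other 4 tested probe sets rose in spleen too. The spleen call of Cox5b did not hold with the 75th percentile of each array set equal or with the mean of its probe sets. Cox5a changed by 0.36 ± 0.09 in spleen (adjusted p = 0.0361; adjusted p = 0.0582 to 0.13 without IL15tg spleen replicates 1, 2 or 3, as well as without NKDxIL15tg spleen replicates 1, 2 or 3, as well as without NKDxIL15tg bone marrow replicate 1), did not pass with the replicate number as a block (adjusted p = 0.0509) or under either rescaling, and did not pass in bone marrow against IL15tg spleen (0.29 ± 0.09, adjusted p = 0.0579).

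Cox6a2, known as the isoform of heart and skeletal muscle, moved the other way. It was dim, at 82.6, 86.6 and 74.7 in IL15tg spleen, 46.1, 44.5 and 44.8 in NKDxIL15tg spleen and 51.8, 51.4 and 51.1 in bone marrow, where the filter for testing lay at 47.7. The 3 groups did not overlap, and NKDxIL15tg spleen lay below the filter, so the gene was tested through its level in the other groups; it was not tested under a stricter filter. It fell by 0.85 ± 0.10 (SE) in spleen (adjusted p = 0.000782) and by 0.66 ± 0.10 in bone marrow against IL15tg spleen (adjusted p = 0.00193), and its second probe set fell by 0.53 in spleen (adjusted p = 0.00788). A floor of 64 lies above every NKDxIL15tg value of the gene and sets them all to 64. The change was then -0.34 in both comparisons, and that it passed is no separate support for the fall. Of 9 tested muscle genes none passed in any comparison, and the summed intensity of all 12 was 657 to 664 in IL15tg spleen, 719 to 765 in NKDxIL15tg spleen and 746 to 798 in bone marrow. Cox6a1, the widely expressed form of the same subunit, changed by -0.09 ± 0.11 in spleen (adjusted p = 0.699).

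Cox7c, a small subunit, was, beside Cox6a2, the other member that fell in bone marrow against IL15tg spleen. It read 289, 267 and 275 in IL15tg spleen, 197, 179 and 261 in NKDxIL15tg spleen and 178, 136 and 169.8 in bone marrow, with no overlap between any of the groups, though neighbouring groups came close. Its spleen change did not pass (-0.40 ± 0.16, adjusted p = 0.143), and that in bone marrow against IL15tg spleen did (-0.79 ± 0.16, adjusted p = 0.00951), as did its second probe set at -0.54 (adjusted p = 0.0455). Of the other isoform sets, Cox4i1 changed by -0.03 ± 0.15 and Cox4i2 by 0.06 ± 0.29 in spleen (adjusted p = 0.943 and 0.943), Cox4i2 reading 239.9 on bone marrow replicate 3 and 89.7 to 130.4 elsewhere. Cox7a2 and Cox7a2l, of which the latter is known as a factor of supercomplex assembly, changed by -0.08 ± 0.12 and 0.22 ± 0.09 in spleen (adjusted p = 0.778 and 0.166). Cox6b1, Cox8a and Cox8c did not pass in any comparison either, and Cox6b2, Cox7a1, Cox7b2 and Cox8b were too dim to be tested.

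Complex V had medians of 0.20 in spleen and 0.40 in bone marrow against IL15tg spleen, with 2 and 8 of 17 genes risen and none fallen. These are 11.8% and 47.1%, beside 7.65% and 11.5% of all tested genes risen. Its catalytic head holds the alpha, beta, gamma, delta and epsilon subunits, which are Atp5a1, Atp5b, Atp5c1, Atp5d and Atp5e. Atp5b read 973, 1102 and 916 in IL15tg spleen, 1598, 1675 and 1252 in NKDxIL15tg spleen and 1704, 1589.8 and 2232 in bone marrow. It rose by 0.59 ± 0.17 in spleen (adjusted p = 0.0461; adjusted p = 0.0625 to 0.155 without IL15tg spleen replicates 1, 2 or 3, as well as without NKDxIL15tg spleen replicates 1 or 2, as well as without NKDxIL15tg bone marrow replicate 1), a call lost with the replicate number as a block (adjusted p = 0.077), and by 0.87 ± 0.17 in bone marrow against IL15tg spleen (adjusted p = 0.00675). Every NKDxIL15tg array lay above every IL15tg array. Atp5a1, its partner in the catalytic ring, changed by 0.07 ± 0.10 in spleen and 0.09 ± 0.10 in bone marrow against IL15tg spleen and did not pass (adjusted p = 0.734 and 0.525). That holds for its brightest probe set: the other 2 had changes of 0.48 and 0.53 in spleen, without passing, and 1 of them rose by 0.74 in bone marrow against IL15tg spleen (adjusted p = 0.0073), where the mean of its probe sets passed as well (0.35, adjusted p = 0.0457). In bone marrow against IL15tg spleen Atp5c1 rose by 0.49 ± 0.12 (adjusted p = 0.0189; adjusted p = 0.0567 to 0.0801 without IL15tg spleen replicates 1 or 3, as well as without NKDxIL15tg bone marrow replicates 1 or 2) and Atp5d by 0.50 ± 0.11 (adjusted p = 0.0134; adjusted p = 0.0509 to 0.0604 without IL15tg spleen replicates 1 or 2), while Atp5e missed the threshold (0.52 ± 0.17, adjusted p = 0.0523). Neither Atp5c1 nor Atp5d passed under either rescaling of the arrays, and Atp5c1 did not pass with the mean of its probe sets (0.16), its second one having a change of -0.17.

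Atp5g1, Atp5g2 and Atp5g3 all encode the same mature c subunit of the rotor. Atp5g2 had the largest change of complex V in bone marrow against IL15tg spleen. It read 633, 685 and 650.3 in IL15tg spleen, 982, 1102 and 826 in NKDxIL15tg spleen and 1335, 1039 and 1601 in bone marrow, a change of 0.99 ± 0.17 (adjusted p = 0.00417, a fold of 1.99). In spleen it changed by 0.55 ± 0.17 (adjusted p = 0.0624), with no overlap between the spleen groups. A second tested probe set of Atp5g2 did not pass (0.25 in bone marrow against IL15tg spleen, adjusted p = 0.105). Atp5g1 rose by 0.69 ± 0.18 in bone marrow against IL15tg spleen (adjusted p = 0.024; adjusted p = 0.0553 to 0.0918 without IL15tg spleen replicates 1 or 2, as well as without NKDxIL15tg bone marrow replicates 1 or 2), and Atp5g3 changed by 0.25 ± 0.09 (adjusted p = 0.0849). The call of Atp5g1 was also lost under either rescaling and with the mean of its probe sets (0.32), of which the second was too dim to be tested. Atp5mpl, a small membrane subunit, read 542, 596 and 527, then 717, 813 and 769.9, then 818, 874 and 932, with no overlap between any of the groups. It rose by 0.47 ± 0.11 in spleen (adjusted p = 0.0209; adjusted p = 0.0516 to 0.0789 without IL15tg spleen replicates 1 or 3, as well as without NKDxIL15tg spleen replicates 2 or 3) and by 0.66 ± 0.11 in bone marrow against IL15tg spleen (adjusted p = 0.00313). Atp5o, the stalk protein that joins the head to the membrane, rose by 0.68 ± 0.15 in the latter (adjusted p = 0.0111; adjusted p = 0.0524 without IL15tg spleen replicate 1).

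Of the 8 Ndufaf genes, Ndufaf1 alone passed in spleen (12.5%, the same share as over all tested genes), and it had the largest change of all members. Ndufaf1 is a factor that assembles the membrane arm of complex I and is not part of the finished complex. It read 153, 145 and 149 in IL15tg spleen, 383, 345 and 375 in NKDxIL15tg spleen and 331, 315 and 286 in bone marrow. The 3 groups did not overlap: NKDxIL15tg spleen was highest, bone marrow lay below it, and IL15tg spleen was lowest. Its change was 1.30 ± 0.10 in spleen (adjusted p = 8.45e-05, a fold of 2.47) and 1.06 ± 0.10 in bone marrow against IL15tg spleen (adjusted p = 0.000229), while bone marrow against NKDxIL15tg spleen gave -0.25 ± 0.10 (adjusted p = 0.468). Both calls held under all 19 alternatives. Ndufaf8 read 767 and 645 on bone marrow replicates 1 and 2 and 1595 on replicate 3.

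**Figure D4:**
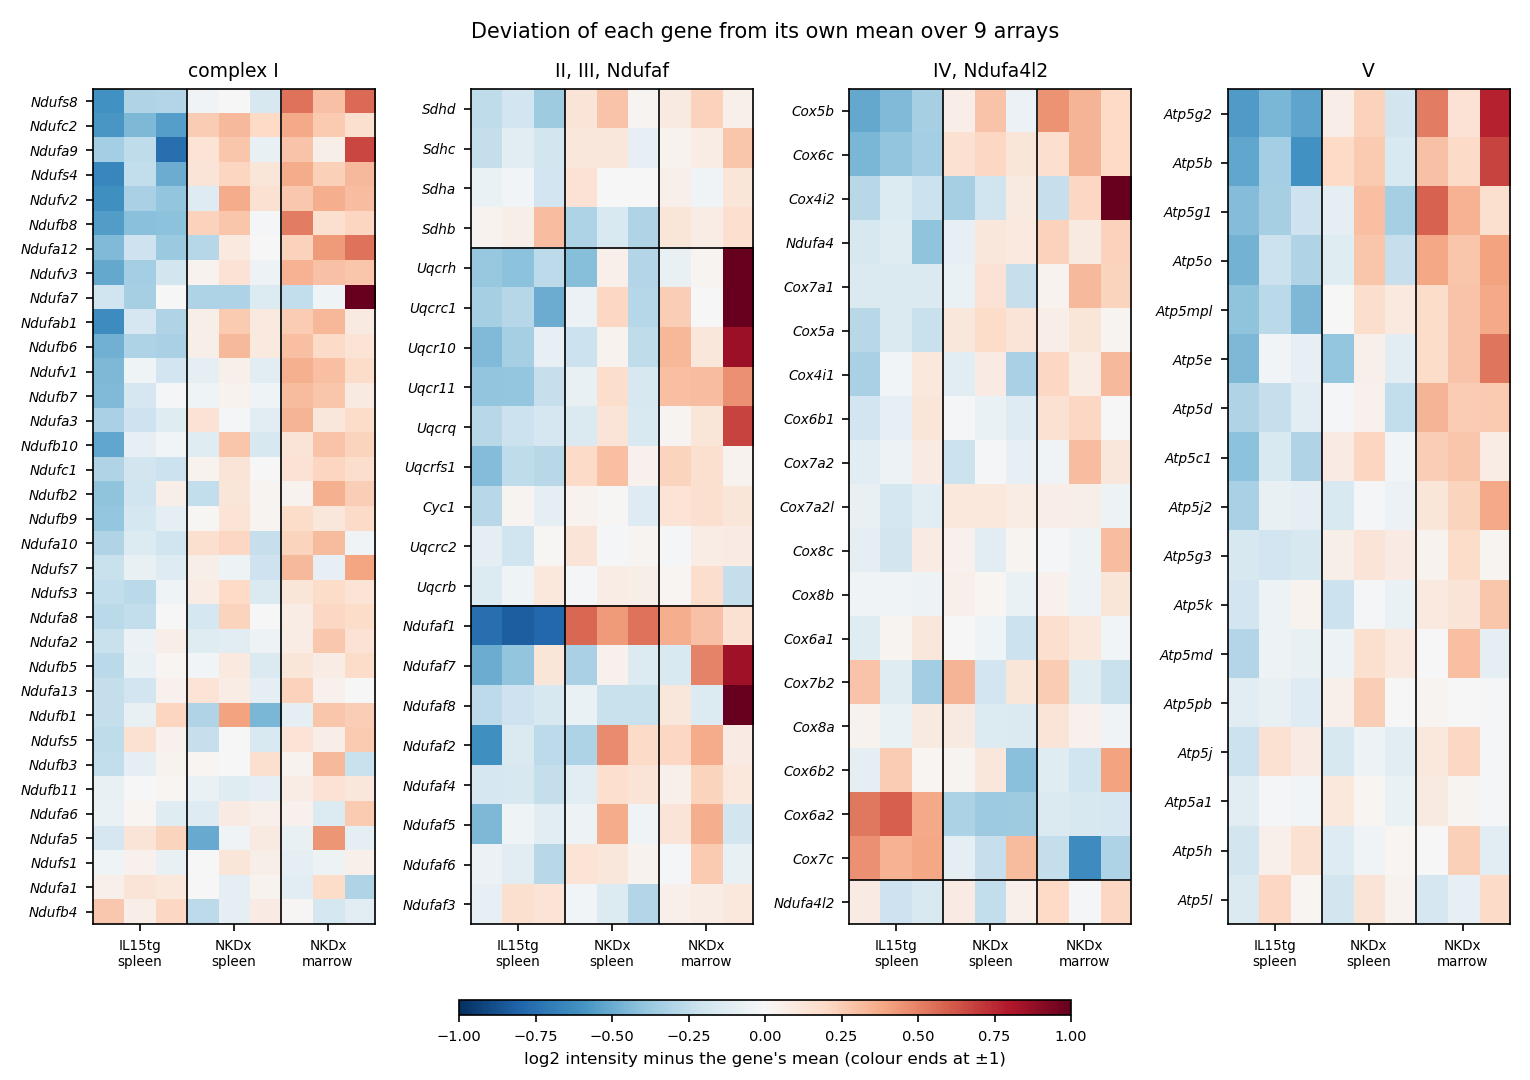
Deviation of all 91 members from their own mean over the 9 arrays (colour, log2 intensity; red above the mean, blue below); each row is a gene, ordered within a complex by its change in bone marrow against IL15tg spleen, and each column is 1 array, replicates 1 to 3 within a group, with NKDx standing for NKDxIL15tg. Most rows are blue in IL15tg spleen and red in bone marrow, Cox6a2 and Cox7c run the other way, and Ndufa7, Uqcrh, Uqcrc1, Cox4i2 and Ndufaf8 reach the darkest red, on bone marrow replicate 3.

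Probe sets of 1 gene were compared where a second one was tested. Of the 16 members called in spleen, 11 had another tested probe set, and in 9 of these another one passed in the same direction; the exceptions were Ndufb8 and Ndufs4. In bone marrow against IL15tg spleen this held for 17 of 24, and Ndufa12 had a further probe set called the opposite way. Another 8 members that were not called there had a further probe set that was (Atp5a1, Cox5a, Cox6b1, Cox7a2l, Ndufa7, Ndufb2, Uqcrc2 and Uqcrq); in Ndufb2 and Uqcrq it fell, by 0.68 and 0.54, while the brightest had changes of 0.39 and 0.50. Among the 91 probe sets that stand for a gene, 7 have names ending in x_at and 14 in s_at, which mark probes that can bind several transcripts. Sdhd, Cox5b and Cox6a2 in the first kind and Ndufc2 and Ndufab1 in the second were among the 16 called in spleen.

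The genes that feed and assemble the chain were read from 4 further lists. Of 51 assembly factors, the 8 Ndufaf genes included, 6 of 50 tested rose in spleen and none fell, beside 7.65% and 4.87% of all tested genes, with a median of 0.11: Ndufaf1, Uqcc2 (0.64 ± 0.16, a complex III factor), Bcs1l (0.56 ± 0.13, which inserts the Rieske protein), Sdhaf2 (0.55 ± 0.14, which helps to attach flavin to Sdha), Coa5 (0.48 ± 0.13) and Sco2 (0.45 ± 0.13), both complex IV factors; Coa5 and Sco2 are named after their values were seen. Adjusted p was 0.034 for Uqcc2, 0.0227 for Bcs1l, 0.0341 for Sdhaf2 and 0.0421 for Coa5, and of the 19 alternatives 9, 4, 9 and 8 ended these calls, among them the fits without IL15tg spleen replicate 1. Of 21 genes of the tricarboxylic acid cycle and pyruvate entry, 6 of 20 tested rose and none fell, beside the same 7.65% and 4.87%, with a median of 0.24. Suclg2, the GTP-forming succinyl-CoA ligase subunit, read 239, 267 and 216 in IL15tg spleen, 649, 702 and 551 in NKDxIL15tg spleen and 706, 567 and 648 in bone marrow, and rose by 1.40 ± 0.14 in spleen (adjusted p = 0.000362). Both NKDxIL15tg groups lay above every IL15tg array and overlapped each other. Pdha1 and Dlat, subunits of pyruvate dehydrogenase, rose by 0.81 ± 0.13 and 0.77 ± 0.14 (adjusted p = 0.00448 and 0.00651), Idh3a of NAD-dependent isocitrate dehydrogenase by 0.68 ± 0.15 (adjusted p = 0.0172), and Dld, a subunit shared by several dehydrogenases, by 0.63 ± 0.15 (adjusted p = 0.025); the calls of Idh3a and Dld were lost without IL15tg spleen replicates 1, 2 or 3, among others, and the sixth, Mdh2, is named after its value was seen.

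Of 18 carriers of electrons and adenine nucleotides, 4 of 13 tested rose in spleen and 1 fell, beside 7.65% and 4.87% of all tested genes. Slc25a4, an ADP/ATP carrier of the inner membrane, read 503, 553 and 556 in IL15tg spleen, 1064, 1460.2 and 1124 in NKDxIL15tg spleen and 1137, 1247 and 957 in bone marrow, and rose by 1.17 ± 0.15 (adjusted p = 0.0015). Every NKDxIL15tg array lay above every IL15tg array. Etfb, of the electron transfer flavoprotein that serves fatty acid oxidation, rose by 1.12 ± 0.22 (adjusted p = 0.0124). The outer membrane channels Vdac2 and Vdac3 rose by 0.47 ± 0.11 and 0.40 ± 0.11 (adjusted p = 0.0209 and 0.0433), and Sqor, which oxidises sulphide, fell, with a change of -0.85 ± 0.19 (adjusted p = 0.0203). The calls of Vdac2 and Vdac3 were each lost in 7 of the 19 alternatives, both rescalings and the fits without IL15tg spleen replicates 1, 2 or 3 among them, and that of Sqor in 8. Cycs, cytochrome c itself, did not pass (0.04 ± 0.16, adjusted p = 0.937). In bone marrow against NKDxIL15tg spleen no gene of any of the 4 lists passed in either direction. Bone marrow against IL15tg spleen had 5 of 50 tested assembly factors risen and 1 fallen, with 6 of 20 cycle genes and 4 of 13 carriers risen. Of all tested genes 11.5% rose and 8.70% fell there, so the 10% of assembly factors risen lay near that share.

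Among 25 regulators of mitochondrial biogenesis, 3 of 23 tested rose in spleen and 3 fell, beside 7.65% and 4.87% of all tested genes. Nrf1, the transcription factor named above, read 182, 169 and 154 in IL15tg spleen, 112, 91.6 and 108 in NKDxIL15tg spleen and 112, 107 and 97.1 in bone marrow. Every NKDxIL15tg array lay below every IL15tg array, with changes of -0.70 ± 0.12 and -0.68 ± 0.12 against IL15tg spleen (adjusted p = 0.00662 and 0.0054). Ppargc1b, a PGC-1 coactivator, was dim, at 78.9, 82.1 and 78, then 42.4, 47.6 and 37.3, then 53.8, 52 and 63.3, and also lower, at -0.92 ± 0.12 in spleen (adjusted p = 0.00193). Its NKDxIL15tg spleen values lay below the filter of 47.7, and the gene was not tested under a stricter filter. The change in spleen was -0.32 with a floor of 64, which lies above all its NKDxIL15tg values. Myc, a transcription factor of growth, read 133, 129.9 and 118, then 178, 286 and 215, then 206, 226 and 241, and was higher, at 0.81 ± 0.17 (adjusted p = 0.0144). Tefm and Tfb1m, which act in mitochondrial transcription and ribosome assembly, rose by 0.80 ± 0.18 and 0.56 ± 0.12 (adjusted p = 0.0183 and 0.0181), calls lost in 3 and 7 of the 19 alternatives, and that of Myc was lost without IL15tg spleen replicates 2 or 3; the third fallen gene, Sirt3, is named after its value was seen. Gabpa, the DNA-binding part of GABP, Tfam, the packaging factor of mitochondrial DNA, and Esrra, an estrogen-related receptor, did not pass (0.31 ± 0.14, 0.34 ± 0.12 and -0.39 ± 0.19, adjusted p = 0.199, 0.0998 and 0.224), and Ppargc1a was too dim to be tested. Of the 23 tested regulators 3 rose and 4 fell in bone marrow against IL15tg spleen, beside 11.5% and 8.70% of all tested genes.

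The promoters of the members were searched for the letters GCGCATG of the NRF1 motif and CCGGAAG of the ETS motif, on both strands; the motifs can share only a base at their ends. RefSeq's table for GRCm38.p6 gives a window from 250 bases before to 50 bases after the start for 74 of the 91 genes. The NRF1 letters stood in 14 of the 74 (18.9%), beside 4.41% of all 27025 genes of that table and 6.33% of 14369 genes matched to the array. The ETS letters stood in 19 (25.7%), beside 9.93% and 15.0%. At least 1 motif stood in 27 members and both in 6: Atp5k, Atp5l, Cox6a1, Ndufb6, Sdhb and Uqcr11. A match describes the letters only and is no measured binding.

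Motif letters stood in the fallen Sdhb, whose call lay near the threshold, and in the risen Ndufb6, Ndufb8, Cox5b, Sdhd and Ndufaf1. Neither motif stood in Ndufc2, Ndufs4, Ndufv2, Ndufab1, Uqcrfs1, Cox5a and Atp5b, which also rose in spleen. Cox6a2, the other fallen gene, has no window in the table. The shares of called and other members with a motif were not compared. The windows below are the 120 bases just before the start of 5 members, shown because they set the fallen Sdhb beside risen members that hold the same letters; capitals mark a motif in either orientation. The positions on GRCm38.p6 are chr4:140961151-140961270 (plus strand) for Sdhb, chr4:40279422-40279541 (minus strand) for Ndufb6, chr1:36691367-36691486 (plus strand) for Cox5b, chr9:50603850-50603969 (minus strand) for Sdhd and chr2:119662835-119662954 (minus strand) for Ndufaf1.
Sdhb: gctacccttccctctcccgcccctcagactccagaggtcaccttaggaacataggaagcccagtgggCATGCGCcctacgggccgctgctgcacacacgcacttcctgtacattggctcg
Ndufb6: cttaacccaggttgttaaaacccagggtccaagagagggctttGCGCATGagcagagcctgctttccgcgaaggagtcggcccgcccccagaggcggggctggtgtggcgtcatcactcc
Cox5b: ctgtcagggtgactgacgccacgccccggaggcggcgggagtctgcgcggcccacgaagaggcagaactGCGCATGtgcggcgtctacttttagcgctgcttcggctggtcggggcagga
Sdhd: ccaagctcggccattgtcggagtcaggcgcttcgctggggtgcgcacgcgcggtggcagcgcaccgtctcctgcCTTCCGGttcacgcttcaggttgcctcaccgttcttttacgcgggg
Ndufaf1: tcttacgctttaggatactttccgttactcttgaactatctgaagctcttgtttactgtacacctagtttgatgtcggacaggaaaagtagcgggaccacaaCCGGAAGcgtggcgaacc
In this stretch Sdhb, whose spleen change was -0.39, carries the NRF1 letters in reverse, and Ndufb6 and Cox5b, which rose by 0.53 and 0.52, carry them forward. Sdhd, the complex II anchor that rose by 0.41, holds the ETS letters in reverse and Ndufaf1 holds them forward. The other motifs of Sdhb and Ndufb6 lie elsewhere in their windows.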

How the data were processed

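The values are linear intensities, as the authors deposited them, for 45101 probe sets on each of 9 arrays. Per the labels' protocols, 150 ng of Trizol-extracted total RNA was labelled with a kit of 2 amplification cycles from the 3' end, so probe sets far from that end can read low. The sources used here do not give how probes were summarised or arrays scaled. Array medians differed by at most 0.20 on the log2 scale, below the limit of 0.3, so values were used as deposited.

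Intensities below 16 were set to 16 and converted to log2, and 64 control probe sets were left out. The 27022 probe sets whose mean reached the 40th percentile (47.7) were tested in R 4.3.3 by limma 3.58.1 (lmFit, then eBayes; 3 group means over 9 arrays, 2-sided, Benjamini-Hochberg over these probe sets, threshold 0.05). Errors of log2 changes are standard errors (SE). A gene was represented by its brightest probe set with 1 symbol, so its adjusted p is the one over all probe sets, and the 10 probe sets of members with several symbols were left out. Named genes were all members called in the spleen comparison, up to 10 called members by size elsewhere, all complex II, core complex I and catalytic subunits, isoform sets, the extremes of each complex, and up to 5 called genes per further list. Members and lists were chosen with earlier results of these data known. No exact permutation test was used, since 3 arrays against 3 allow 0.1 at the lowest. The scripts were tested on simulated data. The number of arrays limits the precision (median SE 0.15).

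Deviations from group means of samples with the same replicate number correlated at 0.16, 0.16 and 0.12 between the spleen groups. They correlated at 0.38, 0.26 and 0.23 between the NKDxIL15tg groups, and at 0.17, -0.02 and 0.24 between bone marrow and IL15tg spleen. Correlations between samples of different numbers are not given beside these, so the values do not show whether the numbers mark pairs. The main fit and its p-values did not use the replicate number. A fit with the replicate number as a block was run beside it for each comparison. Other alternatives were rescaling, the floor, the filter, array weights, fewer groups, the mean of a gene's probe sets and leaving out each array.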

Additional observations from a re-analysis of the deposited data

How the results depend on the processing

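No called member changed direction in any of the 19 alternatives, while the complex II median of bone marrow against NKDxIL15tg spleen, 0.04, changed sign under percentile scaling. The 11 spleen calls lost without 1 array stand beside their values above; Atp5b and Ndufab1 were also lost with a floor of 64 or no filter, and Ndufb8 and Ndufab1 with the mean of probe sets. With the 75th percentile of each array set equal, 9 members were called in spleen (8 higher, 1 lower) and 20 in bone marrow against IL15tg spleen (18 higher), and in bone marrow against NKDxIL15tg spleen the median was 0.082 over all members, 0.085 in complex I, -0.046 in complex II and 0.047 in complex IV; the last was 0.098 against IL15tg spleen. With quantile normalization 22 members were called in bone marrow against IL15tg spleen (20 higher), with medians of 0.30, 0.15 and 0.074 in complexes I, II and IV, and complex IV had 0.076 in bone marrow against NKDxIL15tg spleen. With a floor of 64, complex IV had a median of 0 in spleen and 0.085 in bone marrow against NKDxIL15tg spleen. The mean of all probe sets of a gene gave complex II 0.093 in spleen and 0.23 in bone marrow against NKDxIL15tg spleen, and complexes I, IV and V 0.30, 0.21 and 0.28 in bone marrow against IL15tg spleen. A filter at the 60th percentile left 1 member lower in each comparison with IL15tg spleen, and the replicate block 1 in spleen. The block ended only the calls of Atp5b, Cox5a and Sdhb in spleen and moved the count of members called to 13. Of all tested genes, 12.6% were called in spleen with the block and 9.73% with the 75th percentile set equal. In bone marrow against IL15tg spleen 16.9% were called with the 75th percentile set equal and 18.9% with quantile normalization.

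Leaving out each array in turn gave 5 to 20 members called in spleen (4 to 18 higher, 1 to 2 lower) and 17 to 32 in bone marrow against IL15tg spleen (15 to 30 higher). Of all tested genes, 6.31% to 18.4% were called in spleen in the same fits (3.93% to 11% higher). In bone marrow against IL15tg spleen these shares were 10.8% to 21.7% (6.23% to 12.1% higher). Medians then ranged from 0.10 to 0.27 in complex I in spleen, from 0.17 to 0.42 in complex III and 0.11 to 0.18 in complex IV in bone marrow against NKDxIL15tg spleen, and from 0.31 to 0.43, 0.33 to 0.62 and 0.13 to 0.21 in complexes I, III and IV in bone marrow against IL15tg spleen.

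The counts of the further lists were recomputed under the same alternatives, a choice made after seeing the data. In spleen, assembly factors risen numbered 3 and 2 under the percentile and quantile scalings, 10 with array weights and 10 with only the compared groups, and 1 to 10 without 1 array. Of all tested genes, 6.14%, 6.21%, 11.3% and 10.5% rose in these settings, and 3.93% to 11% without 1 array. The 3 and 2 of 50 tested assembly factors did not exceed that share, while the 10 of 50 did. Carriers risen numbered 2 under both scalings and 2 to 4 without 1 array, and carriers fallen 0 with a floor of 64, the stricter filter or the mean of probe sets and 0 to 1 without 1 array. Cycle genes risen numbered 3 to 7 without 1 array, and 1 fell with a floor of 64, array weights or the mean of probe sets. Regulators risen numbered 0 to 4 without 1 array. In bone marrow against IL15tg spleen, assembly factors risen numbered 9 with array weights, 8 with the replicate block and 4 to 8 without 1 array, with 0 to 1 fallen. Of all tested genes, 15.9% rose there with array weights, 11.8% with the block and 6.23% to 12.1% without 1 array. Under the percentile and quantile scalings 8.46% and 9% of them rose. Carriers risen there numbered 2 under both scalings and 2 to 5 without 1 array. Cycle genes risen numbered 3 and 2 under the percentile and quantile scalings and 3 to 6 without 1 array, with 1 fallen at a floor of 64 or with the mean of probe sets and 0 to 1 without 1 array. Regulators fallen numbered 7 with array weights and 1 to 5 without 1 array. The cause of these shifts was not tested.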
